A study of Homo sapiens with 23 samples.

Results

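FOXA1, FOXA2, FOXA3, CEBPA, CEBPB, ONECUT1, GATA4 and GATA6 encode transcription factors of hepatic and endodermal cells. They were taken from the gene tables by their symbols, each symbol matched 1 row in every table, and the 8 genes were followed among 60564 gene rows in all. The mRNA-seq of a gut-liver-on-a-chip platform covered 23 libraries of 2 established human cell lines, 11 of Caco-2 cells from a colorectal adenocarcinoma and 12 of HepG2 cells from a hepatocellular carcinoma. Both lines grew in chambers of a microfluidic device, either alone (mono-culture) or with the other line in the same circulating medium (co-culture), and received free fatty acids (FFAs) or none. The FFAs were palmitic and oleic acid at 1 mM in total and the cells were taken after 1 day. Each line therefore had a mono-culture control, a mono-culture with FFAs, a co-culture control and a co-culture with FFAs, with 3 libraries each except 2 for the Caco-2 co-culture control.

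The labels describe the treatment medium as low in serum, whereas the study's methods describe a serum-free medium with albumin for the same step. Each line is a single tumour-derived line, so a difference between the lines is a difference between these lines and not between intestine and liver. Nothing in the labels ties a library to its own culture, and the p-values measure the spread between libraries, which may be technical in part. The study's methods state that the mRNA-seq was done in independent experiments, without saying which library came from which. In such bulk libraries, fewer cells of a kind and less RNA per cell cannot be told apart.

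The FOXA proteins are forkhead factors that open chromatin at endodermal and hepatic enhancers, and all 3 bind much the same DNA motif. C/EBPα and C/EBPβ, the products of CEBPA and CEBPB, are leucine zipper factors, of which the first is tied to differentiated hepatocyte metabolism and the second to acute-phase and stress responses. ONECUT1, also called HNF6, acts in liver and bile duct development, and the zinc finger factors GATA4 and GATA6 act early in the endoderm that gives rise to both liver and gut.

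Summed marker levels differed between the lines in the direction of their labels. The summed level of 7 hepatocyte markers was 54889.5 to 83127.5 TPM in HepG2 libraries and 4201 to 6244 TPM in Caco-2 libraries, and that of 6 enterocyte markers was 154 to 245 and 862 to 1156 TPM. CDX2, a defining intestinal factor, was at 60.4 to 136 TPM in Caco-2 cells. The Caco-2 enterocyte sum came mainly from CDH17 (354 to 480 TPM) and VIL1 (408 to 551 TPM). LGALS4 (1.17 to 11.35 TPM) and SI (4.23 to 16.57 TPM) were low there, and CDX1 was at most 0.18 TPM. In HepG2 cells VIL1 was at 153 to 243.8 TPM and made up nearly all of the enterocyte sum. Caco-2 libraries held more TPM of the 7 hepatocyte markers than of the 6 enterocyte markers. The label text on RNA extraction names differentiated primary myoblasts, but the summed level of 5 myoblast markers was at most 0.77 TPM in any library, with MYOD1 at 0 in all 23. The 4 fibroblast markers summed to 38.6 to 65.1 TPM in Caco-2 and 4.22 to 23.4 TPM in HepG2 cells, and the 3 leukocyte markers to 7.97 to 21.9 and 14.7 to 22.6 TPM. The libraries listed 19259 to 23689 genes above 0 TPM. Of the level that 34 HepG2 marker genes had in their own line, 0.10% to 0.183% was found in mono-cultured Caco-2 cells. In Caco-2 co-culture, replicate 1 held 0.825% in the control and 2.08% in the FFAs library. Replicate 2 held 0.088% in the control and 0.242% with FFAs, and replicate 3 with FFAs held 0.105%. In HepG2 cells 63 Caco-2 marker genes reached 0.127% to 0.242% in mono-culture and 0.190% to 0.613% in co-culture.

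The 250 bases before the start are shown for 3 members whose RNA levels the results turn on. CEBPA and GATA6 differed between the lines without overlap, and CEBPB varied most between HepG2 libraries. RefSeq promoter windows on GRCh38.p14 matched 6 of the 8 members, and those of FOXA2 and GATA4 are not printed. Capitals mark a TATA box (TATAAA on the gene strand), and the sequences run 5′ to 3′ on the strand of the gene, minus for CEBPA and plus for CEBPB and GATA6. The windows are chr19:33302535-33302784, chr20:50190580-50190829 and chr18:22169339-22169588.
CEBPA: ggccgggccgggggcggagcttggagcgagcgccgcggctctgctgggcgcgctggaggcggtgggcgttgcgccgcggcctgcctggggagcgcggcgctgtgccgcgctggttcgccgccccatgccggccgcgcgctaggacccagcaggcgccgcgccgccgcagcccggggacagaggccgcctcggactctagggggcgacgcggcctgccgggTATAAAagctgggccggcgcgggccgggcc
CEBPB: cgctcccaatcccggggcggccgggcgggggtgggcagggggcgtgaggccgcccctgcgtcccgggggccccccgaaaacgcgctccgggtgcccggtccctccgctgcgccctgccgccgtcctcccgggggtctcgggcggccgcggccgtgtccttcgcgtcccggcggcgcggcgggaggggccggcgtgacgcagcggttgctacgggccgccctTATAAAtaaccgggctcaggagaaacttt
GATA6: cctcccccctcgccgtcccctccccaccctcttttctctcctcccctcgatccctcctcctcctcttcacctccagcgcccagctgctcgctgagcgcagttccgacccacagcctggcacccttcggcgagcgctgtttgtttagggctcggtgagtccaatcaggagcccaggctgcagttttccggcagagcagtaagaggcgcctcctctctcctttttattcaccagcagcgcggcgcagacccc
The GC content was 81.2% for CEBPA, 77.6% for CEBPB and 64.4% for GATA6, against a median of 58% over all promoters. For CEBPB the table held another window, for a start further upstream (chr20:50190333-50190582, GC content 75.6%), which had none of the motifs searched and is not printed. The TATA box lay at -30 to -25 from the start in CEBPA and at -29 to -24 in CEBPB, and 6.8% of 35116 promoters of this length held one. The windows were also searched on both strands for the FOX core TGTTTNC, present in 15.5% of all promoters, the C/EBP motif TTGCNNAA (9.05%), the GATA motif (A or T, then GATA, then A or G; 22.3%) and the ONECUT motif ATTGANT (6.68%). None of these letters occurred in the 3 windows shown. The windows of FOXA1 and FOXA3 lie within the spans of their genes, overlap own exons by 99 and 116 bases and are not printed. In that of FOXA1, GCAAACA, the FOX core on the other strand, lay at -235 to -229. The window of FOXA3 held a TATA box at -30 to -25 from the start it belongs to. The GATA6 window lies within an exon of GATA6-AS1 (chr18:22164886-22169878, minus strand), a non-coding gene read from the opposite strand.

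The genes lie on 6 autosomes, with coordinates given on GRCh38. FOXA1 is at chr14:37589552-37596059 on the minus strand, FOXA2 at chr20:22580998-22585455 on the minus strand and FOXA3 at chr19:45863989-45873797 on the plus strand. CEBPA (chr19:33299934-33302534, minus strand) and CEBPB (chr20:50190830-50192668, plus strand) span only 2601 and 1839 bp. ONECUT1 spans chr15:52755053-52791078 on the minus strand, GATA4 spans chr8:11676959-11760002 and GATA6 chr18:22169589-22202528, both on the plus strand. FOXA2 and CEBPB share chromosome 20, and FOXA3 and CEBPA share chromosome 19.

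The kit did not mark strand, so reads from overlapping genes on opposite strands cannot be told apart. CEBPA shares 659 of its 2601 exonic bases with ENSG00000267580 and 482 with ENSG00000267727, non-coding genes on the other strand. Their median levels were 53.0 and 34.0 TPM in Caco-2 cells and 16.7 and 13.0 TPM in HepG2 cells, so both stood higher in the line with more CEBPA, and their part in the CEBPA values was not tested. CEBPB shares 231 of 1839 bases with CEBPB-AS1, which had a median of 0.63 TPM in Caco-2 and 0.69 TPM in HepG2 cells. GATA6 shares 94 of 3799 bases with GATA6-AS1 and 321 with ENSG00000266283. FOXA1 shares 16 of 4414 bases with TTC6.

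Levels are given in TPM, transcript abundances that are scaled to a fixed total per library and by transcript length, so genes can be compared with each other. In Caco-2 cells the median level ran from FOXA1 (245 TPM) through CEBPA (125), GATA6 (112), CEBPB (73.4), FOXA2 (23.3), FOXA3 (8.35) and GATA4 (4.60) to ONECUT1 (0.20 TPM). FOXA1 was above CEBPA in 11 of 11 Caco-2 libraries although their ranges met, CEBPA was above GATA6 in 9 of 11, and FOXA3 was above GATA4 in 11 of 11 with ranges that overlapped. In HepG2 cells the order was CEBPB (81.0 TPM), GATA4 (67.5), FOXA1 (60.5), CEBPA (40.7), FOXA2 (32.5), FOXA3 (15.9), GATA6 (6.22) and ONECUT1 (3.91 TPM). The HepG2 order was less settled at its top, where CEBPB was above GATA4 in 8 of 12 libraries, GATA4 above FOXA1 in 9 and FOXA1 above CEBPA in 9, with overlapping ranges in each case. CEBPA stood above FOXA2 in 12 of 12 libraries and GATA6 above ONECUT1 in 11, also with overlapping ranges. The 8 genes together made up 532 to 713 TPM (median 597) in Caco-2 and 275 to 394 TPM (median 318) in HepG2 libraries, so their summed level was lower in every library of the hepatic line.

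**Figure D1:**
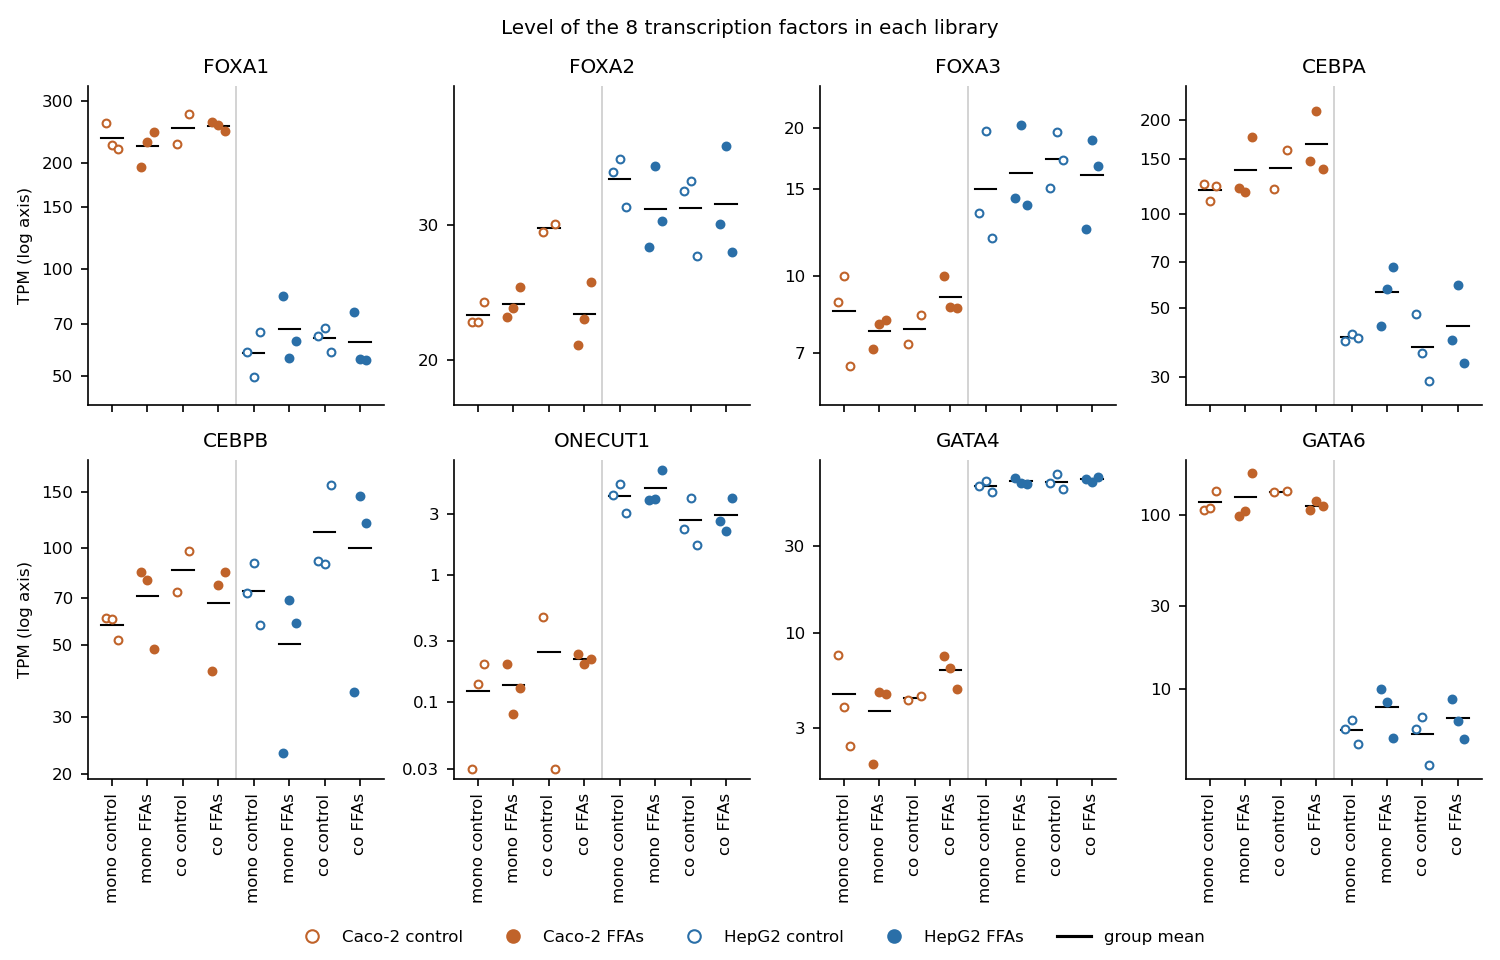
Level of each of the 8 genes in each library, in TPM on a log axis with a scale of its own per gene, by cell line, culture and treatment (open, control; filled, FFAs; bar, group mean). FOXA1, CEBPA and GATA6 lay higher in Caco-2 cells and FOXA3, ONECUT1 and GATA4 higher in HepG2 cells without overlap, whereas FOXA2 and CEBPB overlapped.

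Among the FOXA genes, FOXA1 was the member with the highest level in both lines. In Caco-2 cells FOXA1 stood at 261, 225 and 220 TPM in mono-culture control, 195, 230 and 245 with FFAs, 226 and 276 in co-culture control and 262, 257 and 247 in co-culture with FFAs. In HepG2 cells it stood at 58.4, 49.4 and 66.4 TPM in mono-culture control, 84.2, 56.2 and 62.5 with FFAs, 64.9, 68.2 and 58.1 in co-culture control and 75.5, 55.7 and 55.5 in co-culture with FFAs. All Caco-2 libraries lay above all HepG2 libraries. Within Caco-2 cells the co-culture libraries with FFAs lay just above the mono-culture libraries with FFAs.

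FOXA2, which is needed for endoderm formation, differed less. In Caco-2 cells it was at 22.4, 22.4 and 23.8 TPM in mono-culture control, 22.7, 23.3 and 24.9 with FFAs, 29.4 and 30.1 in co-culture control and 20.9, 22.6 and 25.3 in co-culture with FFAs. In HepG2 cells it was at 35.2, 36.6 and 31.7 TPM in mono-culture control, 28.1, 35.9 and 30.4 with FFAs, 33.2, 34.3 and 27.3 in co-culture control and 30.1, 38.0 and 27.6 in co-culture with FFAs. The 2 Caco-2 co-culture controls lay above the other 9 Caco-2 libraries and inside the range of the HepG2 libraries.

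FOXA3, a FOXA factor of mature liver, was the lowest of the family. In Caco-2 cells it was at 8.88, 10.0 and 6.58 TPM in mono-culture control, 7.12, 8.01 and 8.17 with FFAs, 7.29 and 8.35 in co-culture control and 10.0, 8.67 and 8.62 in co-culture with FFAs. In HepG2 cells it was at 13.4, 19.7 and 11.97 TPM in mono-culture control, 14.4, 20.3 and 13.9 with FFAs, 15.1, 19.6 and 17.2 in co-culture control and 12.5, 18.9 and 16.7 in co-culture with FFAs. The lines did not overlap, and in HepG2 cells replicate 2 was the highest library of every group.

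The makeup of the family therefore differed by line. FOXA1 held 86.1% to 89.4% of the summed FOXA level in Caco-2 cells and 46.8% to 66.5% in HepG2 cells, FOXA2 held 7.14% to 11.2% and 22.1% to 34.6%, and FOXA3 held 2.63% to 3.89% and 10.6% to 18.6%. The sum of the 3 was 225 to 314 TPM in Caco-2 and 99.8 to 127 TPM in HepG2 cells. None of these ranges overlapped between the lines.

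CEBPA was also higher in the intestinal line. In Caco-2 cells it was at 125, 110 and 123 TPM in mono-culture control, 121, 117 and 177 with FFAs, 120 and 160 in co-culture control and 148, 214 and 140 in co-culture with FFAs. Among HepG2 libraries it was at 39.2, 41.4 and 40.1 TPM in mono-culture control, 43.6, 57.5 and 67.8 with FFAs, 47.7, 35.8 and 29.3 in co-culture control and 39.4, 59.1 and 33.2 in co-culture with FFAs. The lines did not overlap, and the 3 mono-cultured HepG2 libraries with FFAs lay above their 3 controls, which the test given below did not separate from the spread.

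CEBPB had the largest spread of the genes on the log2 scale in HepG2 cells. In Caco-2 cells it was at 60.9, 60.3 and 51.8 TPM in mono-culture control, 84.7, 80.0 and 48.8 with FFAs, 73.4 and 97.9 in co-culture control and 41.7, 76.8 and 84.7 in co-culture with FFAs. Among HepG2 libraries it was at 72.7, 90.4 and 57.9 TPM in mono-culture control, 23.2, 69.4 and 58.7 with FFAs, 91.2, 89.3 and 157 in co-culture control and 35.9, 145 and 120 in co-culture with FFAs. The lines overlapped, and replicate 1 was the lowest HepG2 library of both FFAs groups. CEBPA made up 58.8% to 78.4% of the summed CEBPA and CEBPB level in Caco-2 cells and 15.7% to 65.3% in HepG2 cells.

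ONECUT1 was the lowest gene of both lines. In Caco-2 cells it was at 0.03, 0.14 and 0.20 TPM in mono-culture control, 0.20, 0.08 and 0.13 with FFAs, 0.47 and 0.03 in co-culture control and 0.24, 0.20 and 0.22 in co-culture with FFAs. HepG2 libraries had 4.28, 5.18 and 3.06 TPM in mono-culture control, 3.89, 3.92 and 6.72 with FFAs, 2.31, 4.04 and 1.71 in co-culture control and 2.66, 2.20 and 4.03 in co-culture with FFAs. All HepG2 libraries lay above all Caco-2 libraries. The 0.47 TPM came from the co-culture control library in which HepG2 marker genes reached 0.825% of their own level. The FFAs library with 2.08% was at 0.24 TPM. Beyond the mean share in Caco-2 mono-culture controls, these libraries held 0.70% and 1.95% of the HepG2 marker level. ONECUT1 had a mean of 4.17 TPM in HepG2 mono-culture control. The part of HepG2 RNA in the Caco-2 values was not tested.

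GATA4 and GATA6 took opposite places in the lines. In Caco-2 cells GATA4 was at 7.60, 3.92 and 2.41 TPM in mono-culture control, 1.90, 4.72 and 4.60 with FFAs, 4.28 and 4.49 in co-culture control and 7.46, 6.44 and 4.95 in co-culture with FFAs. In HepG2 cells GATA4 was at 64.5, 68.7 and 59.4 TPM in mono-culture control, 71.6, 67.2 and 66.2 with FFAs, 66.6, 75.0 and 61.8 in co-culture control and 70.7, 67.9 and 71.8 in co-culture with FFAs. All HepG2 libraries were above all Caco-2 libraries, and GATA4 kept within 59.4 to 75.0 TPM over the 12 HepG2 libraries.

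For GATA6 the order was the other way round. In Caco-2 cells it was at 107, 110 and 138 TPM in mono-culture control, 98.7, 106 and 174 with FFAs, 136 and 137 in co-culture control and 107, 121 and 112 in co-culture with FFAs. In HepG2 cells it was at 5.83, 6.60 and 4.83 TPM in mono-culture control, 9.96, 8.43 and 5.19 with FFAs, 5.87, 6.86 and 3.64 in co-culture control and 8.72, 6.56 and 5.11 in co-culture with FFAs. GATA4 made up 1.71% to 6.62% (median 3.45%) of the summed GATA4 and GATA6 level in Caco-2 cells and 87.8% to 94.4% (median 91.7%) in HepG2 cells. The sum of both was 101 to 179 TPM in Caco-2 and 64.2 to 81.8 TPM in HepG2 cells.

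**Figure D2:**
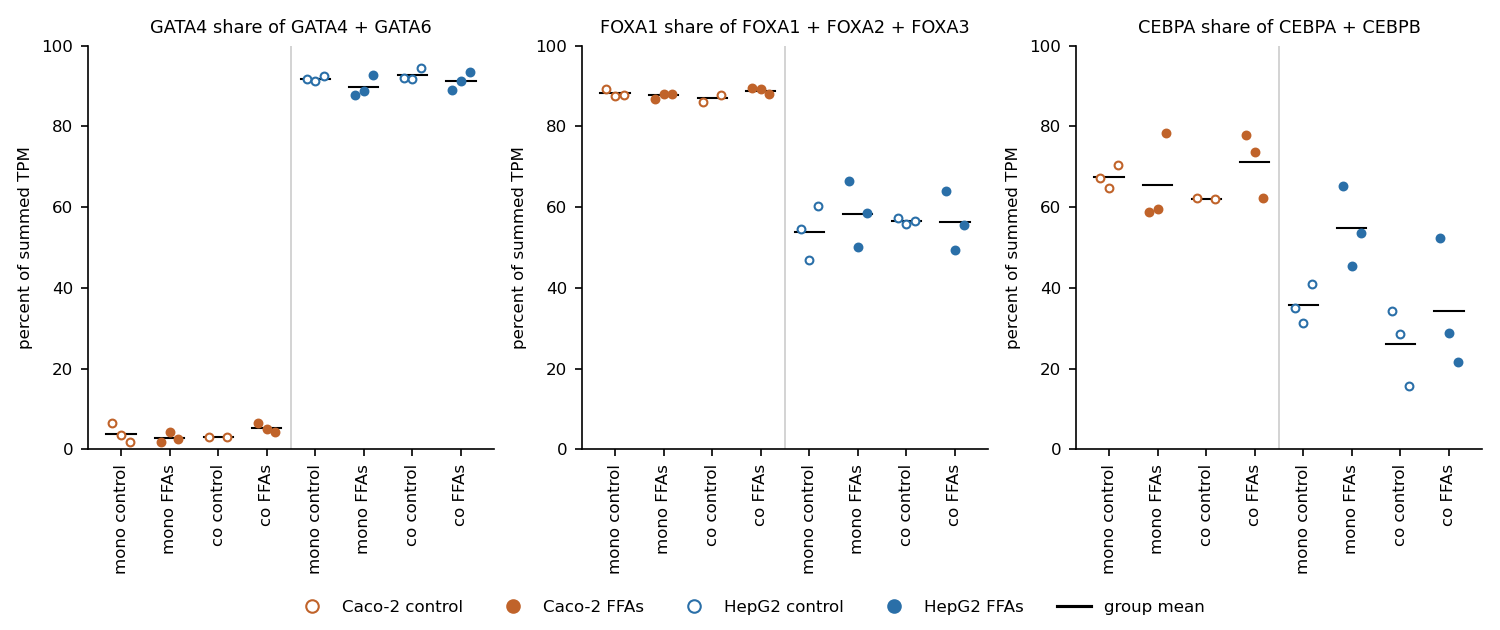
Share of GATA4 in GATA4 plus GATA6, of FOXA1 in the 3 FOXA genes and of CEBPA in CEBPA plus CEBPB, in percent of summed TPM, per library (open, control; filled, FFAs; bar, group mean). GATA4 was at 1.71% to 6.62% in Caco-2 and 87.8% to 94.4% in HepG2 cells, FOXA1 at 86.1% to 89.4% and 46.8% to 66.5%, and the CEBPA shares of the lines overlapped.

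The first comparison asked how the lines differed, with each condition set against the same condition in the other line and no library used in more than 1 of the 4 pairs. Differences were computed on log2(TPM + 1), HepG2 minus Caco-2, and tested with limma with Benjamini-Hochberg adjustment over 16495 genes, with a gene called at an adjusted p under 0.05. Over all 4 matched conditions 7 of the 8 genes were called, FOXA2, FOXA3, ONECUT1 and GATA4 higher in HepG2 cells and FOXA1, CEBPA and GATA6 higher in Caco-2 cells. Of all genes tested, 29.2% were called higher in HepG2 cells and 49.8% higher in Caco-2 cells, so being called was common, and 4 and 3 of 8 members in the 2 directions are to be read against these shares. The calls higher in HepG2 cells were 36.9% of all calls as deposited, 48% after median-of-ratios scaling and 51.2% after quantile normalization. The median difference of all genes was -0.24 and median-of-ratios scaling raised HepG2 values against Caco-2 values by 0.24 on the log2 scale. No member changed direction under either scaling.

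GATA6 had the largest difference of the 8, at -4.08 (SE 0.12, limma adjusted p = 8.65e-17), which is 16.9-fold lower in HepG2 cells on the TPM + 1 scale. GATA4 differed by 3.64 (SE 0.13, limma adjusted p = 2.17e-15), 12.4-fold higher in HepG2 cells. In size these exceeded 97.1% and 96.1% of all genes tested, which were not matched for level. FOXA1 differed by -1.93 (SE 0.077, limma adjusted p = 9.61e-15) and CEBPA by -1.66 (SE 0.12, limma adjusted p = 6.94e-11). ONECUT1 differed by 1.93 (SE 0.12, limma adjusted p = 1.79e-11). FOXA3 differed by 0.87 (SE 0.099, limma adjusted p = 1.21e-07) and FOXA2 by 0.37 (SE 0.064, limma adjusted p = 2.52e-05). The FOXA2 value was 0.60 after median-of-ratios scaling and 0.64 after quantile normalization. CEBPB differed by 0.12 (SE 0.23, limma adjusted p = 0.627), with a 95% confidence interval of -0.35 to 0.60 that spanned 0, and its ranges overlapped between the lines. The CEBPB value was 0.35 under either scaling and was again not called.

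The ONECUT1 difference depended on the pseudocount because its level in Caco-2 cells was under 1 TPM, and with a pseudocount of 0.1 it was 3.79. The median size of the difference, regardless of direction, was 1.79 over the 8 genes and 0.63 over all genes tested. The 8 genes were chosen with earlier results of these data known. All genes tested include low ones, whose differences this scale understates, so these medians do not compare like with like. Without any test, 3 of the 8 genes had all HepG2 libraries above all Caco-2 libraries (FOXA3, ONECUT1 and GATA4) and 3 had the reverse (FOXA1, CEBPA and GATA6), where 14.1% and 28.6% of all genes did so. FOXA2 and CEBPB overlapped.

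In mono-culture control alone, with neither FFAs nor the other line, the same 7 genes were called, against 23.4% of all genes called higher in HepG2 and 39% called higher in Caco-2 cells. Here the calls higher in HepG2 cells were 37.5% of all calls as deposited, 47.6% after median-of-ratios scaling and 49.9% after quantile normalization. The differences in mono-culture control were -4.14 for GATA6, 3.63 for GATA4, 2.19 for ONECUT1, -2.01 for FOXA1, -1.54 for CEBPA, 0.74 for FOXA3 and 0.57 for FOXA2. CEBPB differed by 0.33 (SE 0.44, limma adjusted p = 0.536). In co-culture control FOXA2 was not called, with a difference of 0.08 (SE 0.14, limma adjusted p = 0.652), and 6 of the 8 genes were. Of all genes 19.8% were called higher in HepG2 and 39% higher in Caco-2 cells in that condition. With FFAs 7 members were called in mono-culture, against 21.8% and 39.3% of all genes in the 2 directions, and 7 in co-culture, against 21.3% and 39.7%. GATA6 ranged from -4.44 to -3.84 and GATA4 from 3.30 to 3.94 over the 4 conditions.

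**Figure D3:**
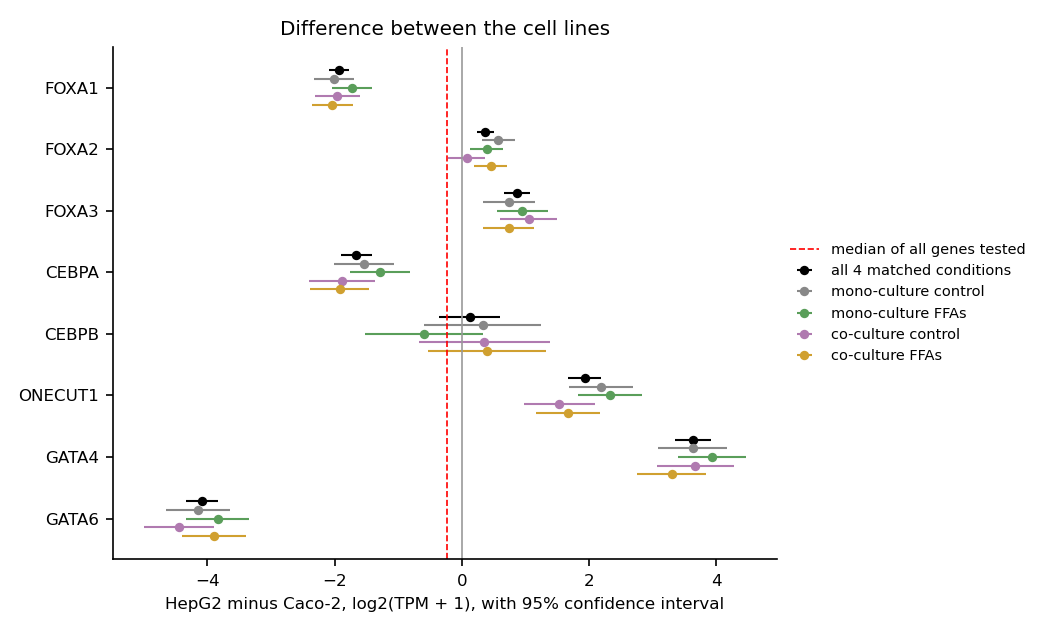
Difference between the lines for each gene, HepG2 minus Caco-2 on the log2(TPM + 1) scale, over all 4 matched conditions (black) and in each condition (colours), with 95% confidence intervals from the limma fit. The dashed line is the median of all genes tested (-0.24), and CEBPB alone has an interval over all conditions that spans 0.

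Whether co-culture acted differently in the lines was tested by the difference of the co-culture effects, HepG2 minus Caco-2. None of the 8 genes was called, and 0.533% of all genes were. Without adjustment 2 of the 8 had p under 0.05, ONECUT1 with -0.65 (SE 0.25, limma adjusted p = 0.216) and CEBPA with -0.49 (SE 0.23, limma adjusted p = 0.333). Of all genes tested 14.6% had an unadjusted p under 0.05 in this comparison. FFAs effects were not compared between the lines.

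Within a line the questions were what FFAs changed in each culture and what co-culture changed with and without FFAs. Each line was fitted with its 4 groups together, which gave 7 contrasts of 15081 genes in Caco-2 and of 14255 genes in HepG2 cells. All 8 members passed the filter on low values in HepG2 cells and 7 did in Caco-2 cells, where ONECUT1 did not reach a mean of 1 TPM in any group. limma called none of the members in any of the 14 contrasts. Few genes of any kind were called in these fits, which had no replicate block, namely 0.0199% for FFAs in Caco-2 co-culture, 0.0199% for co-culture against mono-culture without FFAs, 0% in the other 5 Caco-2 contrasts, 0.0561% for co-culture against mono-culture over both treatments in HepG2 cells and 0% in the other 6.

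In Caco-2 cells FOXA2 was the only member with an unadjusted p under 0.05, and it had one in 3 contrasts that share the 2 co-culture control libraries (29.4 and 30.1 TPM). With FFAs in co-culture it differed by -0.37 (SE 0.11, limma adjusted p = 1). Co-culture against mono-culture without FFAs gave 0.36 (SE 0.11, limma adjusted p = 0.867). The FFAs effect in co-culture minus that in mono-culture was -0.41 (SE 0.15, limma adjusted p = 1.00). Unadjusted p under 0.05 was reached by 2.83%, 5.43% and 1.94% of all genes in these contrasts. In mono-culture FFAs differed from control by 0.05 for FOXA2. Without the 2 co-culture libraries of replicate 1, which held the most RNA of HepG2 marker genes, the FFAs difference in co-culture was -0.32 and was not called, with 1 control library left that was assumed to vary like the other groups.

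In HepG2 cells ONECUT1 had an unadjusted p under 0.05 in 1 contrast. Co-culture against mono-culture over both treatments gave -0.53 (SE 0.21, limma adjusted p = 0.312), and 12.6% of all genes had an unadjusted p under 0.05 there. The 6 co-culture libraries lay at 1.71 to 4.04 TPM and the 6 mono-culture libraries at 3.06 to 6.72 TPM, so they overlapped. CEBPB gave 0.74 in the same contrast (SE 0.36, limma adjusted p = 0.426), with a 95% confidence interval of -0.04 to 1.51. CEBPA with FFAs in mono-culture gave 0.45 (SE 0.23, limma adjusted p = 1), with an interval of -0.05 to 0.95.

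The remaining values were small or imprecise. The differences between FFAs and control ran from -0.21 (GATA4) to 0.26 (CEBPB) in Caco-2 mono-culture, from -0.38 (CEBPB) to 0.42 (GATA4) in Caco-2 co-culture, from -0.66 (CEBPB) to 0.45 (CEBPA) in HepG2 mono-culture and from -0.34 (CEBPB) to 0.28 (GATA6) in HepG2 co-culture. In HepG2 cells the 95% confidence interval of a single contrast reached 0.22 to either side for GATA4 and 1.10 for CEBPB, so the precision differed widely between these genes. In Caco-2 cells the narrowest interval for FFAs in mono-culture was that of FOXA2 (0.22 to either side) and the widest that of GATA4 (0.75). In co-culture against mono-culture over both treatments the 7 Caco-2 members tested had differences of 0.05 to 0.35, with a median of 0.16 against 0.03 for all genes. None of these was called and the smallest adjusted p was 0.496.

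**Figure D4:**
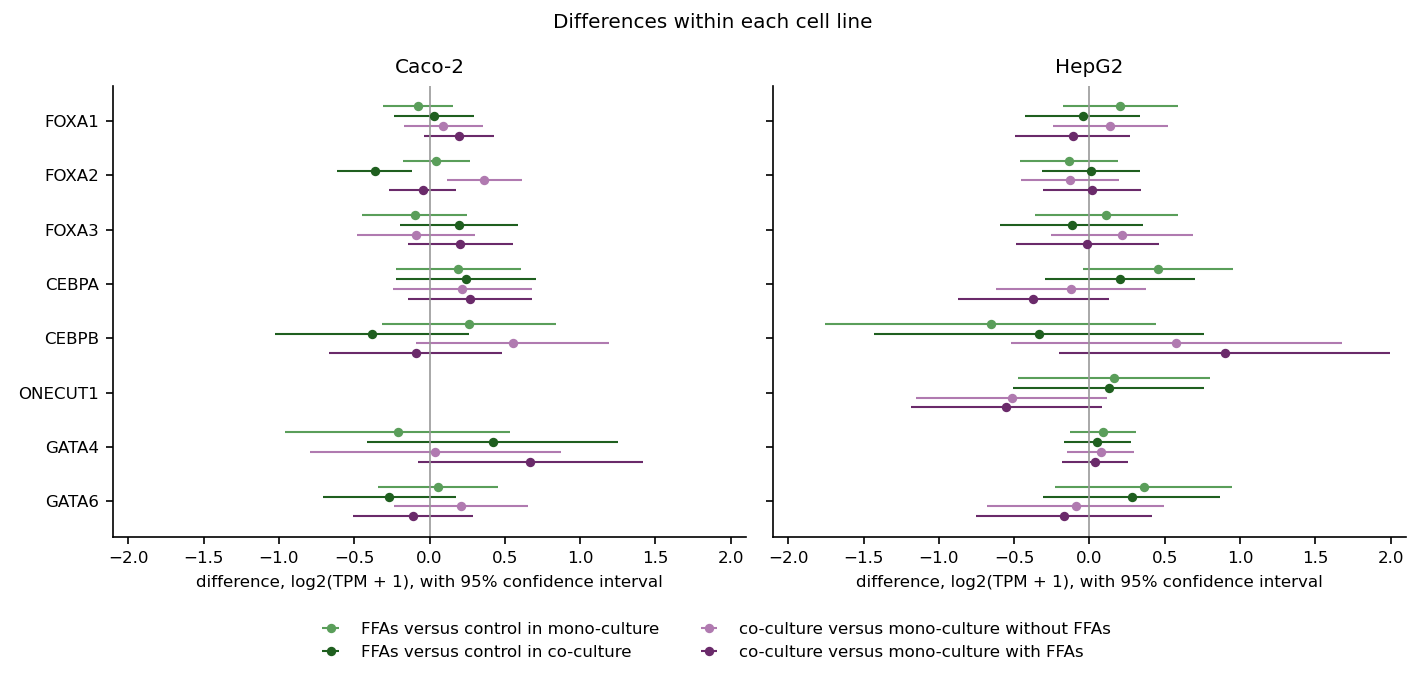
Differences within Caco-2 (left) and HepG2 cells (right) for FFAs against control and co-culture against mono-culture, on the log2(TPM + 1) scale with 95% confidence intervals from the limma fits, ONECUT1 not being tested in Caco-2 cells. The FOXA2 intervals of 2 Caco-2 contrasts lie clear of 0 before adjustment, those of GATA4 are narrow in HepG2 cells, and those of CEBPB are wide there.

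The study selected genes by an analysis of variance and a minimum fold change, which was applied here as a one-way analysis over the 4 groups with p under 0.05 before adjustment, together with group means that differ by 1.2-fold or more in any pair. Whether the study adjusted p or compared group means was not given in the sources used here. By these, 3.08% of 31100 genes above 0 TPM passed in Caco-2 cells and 3.56% of 29942 in HepG2 cells. FOXA2 in Caco-2 cells passed, with a largest difference of 0.37 on the log2 scale between group means, and none of the 8 passed in HepG2 cells. It did not pass with Benjamini-Hochberg adjustment or without co-culture control replicate 2, and it passed without the 2 co-culture libraries of replicate 1. Either of these omissions left 1 co-culture control library, with the spread taken from the other groups.

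The spread between libraries differed from gene to gene. In HepG2 cells CEBPB had a pooled standard deviation within groups of 0.74 on the log2 scale, above that of 99.2% of 1645 genes of like level, and in Caco-2 cells 0.39, above 97.7%. GATA4 in HepG2 cells had 0.094, above 8.48% of genes of like level, and FOXA2 in Caco-2 cells 0.083, above 3.66%. In Caco-2 cells GATA4 had the largest value of the 7 members tested, 0.49, above 87.7% of genes of like level. The gene with the highest median in HepG2 cells was thus among the most variable of its level and the next one among the steadier.

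The way members varied together was described after the mean of each group had been taken off, over 56 pairs of members within a line. An exact permutation test within groups gave p under 0.05 for 6 pairs and none after Benjamini-Hochberg adjustment. The strongest was FOXA1 with CEBPB in HepG2 cells, singled out after its value was seen, with Pearson's r = -0.938 and Spearman's rho = -0.881 (n = 12 libraries, exact permutation p = 0.00154, adjusted p = 0.0864), and r = -0.882 without the 2 libraries farthest from the median. In Caco-2 cells the strongest was FOXA1 with GATA4, with r = 0.803 and rho = 0.836 (n = 11 libraries, exact permutation p = 0.00463, adjusted p = 0.13). Neither pair was as strong in the other line, with r = -0.188 for FOXA1 with CEBPB in Caco-2 cells and r = 0.141 for FOXA1 with GATA4 in HepG2 cells. The test treats the libraries of a group as exchangeable whatever their replicate number, and TPM values of one library share a total, so they are not free of one another.

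In each case the genes most like a member were found by Pearson's r of log2(TPM + 1) after the mean of each line was taken off, over 23 libraries and 12841 genes, given as a description without a test since all values come from the same libraries. CEBPB had the closest neighbours, with STC2 (r = 0.953), VEGFA (0.928) and CEBPG (0.912), of which STC2 encodes a secreted glycoprotein, VEGFA an angiogenic growth factor and CEBPG a C/EBP partner. GATA6 was most like SELENOH (0.875), CBX8 (0.861) and ZNF165 (0.858), and FOXA1 was most like HPX (0.815), SCGN (0.783) and IFFO2 (0.724). For FOXA2 these were MAP4K4 (0.787), PHKA2 (0.737) and WDR27 (0.736), and for FOXA3 they were LRCH3 (0.768), IRAK2 (0.759) and UBE2W (0.736). For CEBPA they were ABHD15 (0.782), PURB (0.781) and AGPAT3 (0.762), and for GATA4 they were CYFIP2 (0.742), LINC00909 (0.742) and ZNF625-ZNF20 (0.736). ONECUT1, taken over the 12 HepG2 libraries and 14255 genes, was most like AMN (0.921), AC131097.2 (0.901) and AC009126.1 (0.898).

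In HepG2 cells the lowest CEBPB values came from 1 replicate number. The 2 lowest libraries were replicate 1 of mono-culture with FFAs and replicate 1 of co-culture with FFAs, with CEBPB at 23.2 and 35.9 TPM. The same 2 libraries had CEBPG at 29.8 and 37.0 TPM and VEGFA at 73.8 and 90.2 TPM, the lowest of the line for both genes, and FOXA1 at 84.2 and 75.5 TPM, the highest. IGFBP1, an insulin-responsive liver gene, was at 107 and 103 TPM there and at 345 to 1280 TPM in the other 10. What set these libraries apart was not tested.

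**Figure D5:**
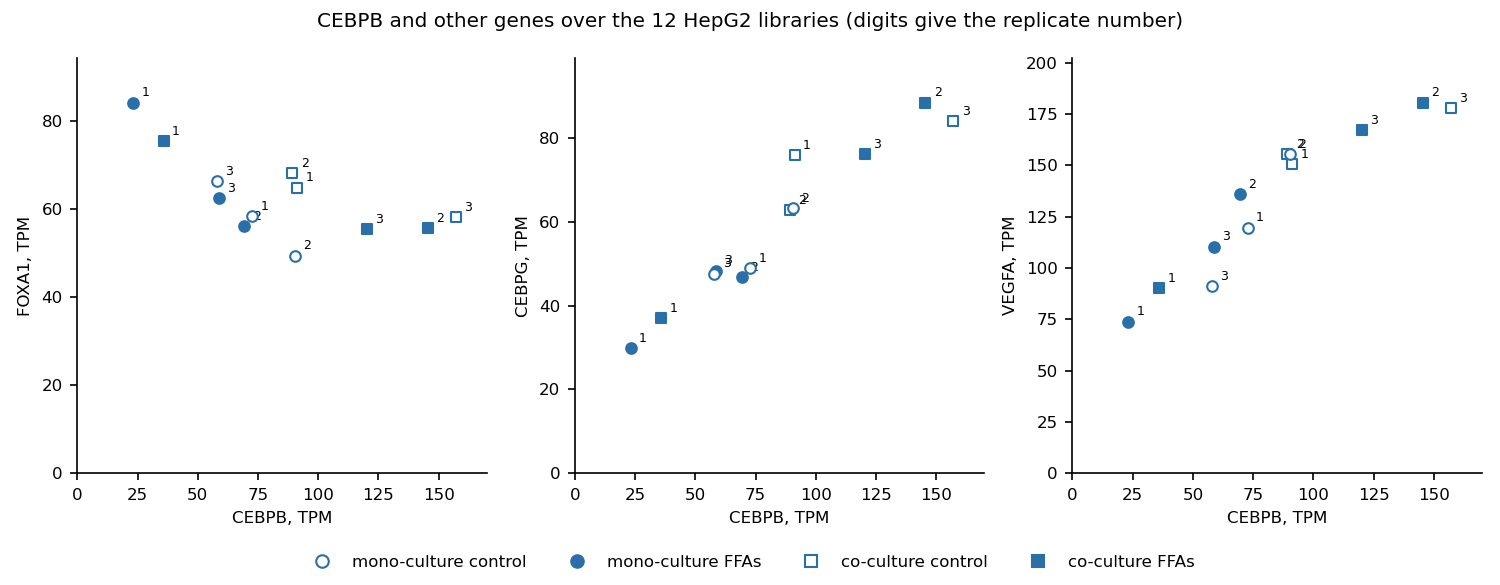
FOXA1, CEBPG and VEGFA against CEBPB over the 12 HepG2 libraries, all in TPM on linear axes that start at 0 (circles, mono-culture; squares, co-culture; filled, FFAs; digits, replicate number). Replicate 1 with FFAs has the lowest CEBPB in both cultures (23.2 and 35.9 TPM) with the highest FOXA1 and the lowest CEBPG and VEGFA.

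Other genes of the same network were read from lists, none of which had a called gene in any contrast within a line. Between the lines, over all 4 matched conditions, 10 of 12 other hepatic and endodermal transcription factors were tested, 6 called higher in HepG2 and 4 higher in Caco-2 cells, with a median difference of 0.68 against -0.24 for all genes. HHEX, a homeobox factor of the liver bud, differed by 2.52, and PROX1, a factor of hepatoblast migration, by 2.24. NR5A2, a nuclear receptor of bile acid and sterol genes, differed by -1.90. HNF4A, a central nuclear receptor of hepatocytes that enterocytes also express, was at 93.1 to 152 TPM in Caco-2 and 59.6 to 102 TPM in HepG2 cells and differed by -0.38. NR5A2 was under 1 TPM in all 4 HepG2 libraries of replicate 3.

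The counts of the lists are to be read against the 29.2% and 49.8% of all genes called higher in HepG2 and in Caco-2 cells. Of 6 C/EBP relatives and partners 5 were tested, 1 called higher in HepG2 and 3 higher in Caco-2 cells, with a median of -0.51. CEBPD, an acute-phase C/EBP, differed by -0.98, CEBPG by -0.51 and DDIT3, a stress-induced C/EBP partner, by -1.86. Of 6 other GATA factors and FOG cofactors 4 were tested, 1 called higher in HepG2 and 2 higher in Caco-2 cells, with a median of -0.30. GATA3 differed by -3.72, GATA2 by 1.40 and GATA5 by -0.58.

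Most intestinal factors were higher in Caco-2 and most liver target genes higher in HepG2 cells. Of 8 intestinal transcription factors 6 were tested, 5 called higher in Caco-2 cells and 1 higher in HepG2 cells, with a median of -2.70. CDX2 differed by -6.09, KLF5, a factor of crypt epithelium, by -4.71 and ELF3, an epithelial ETS factor, by -3.40. Of 13 liver target genes 11 were called higher in HepG2 cells and none higher in Caco-2 cells, with a median of 3.26. ALB (albumin) differed by 5.94, IGFBP1 by 8.30 and APOB (apolipoprotein B) by 3.26. APOA1 (-0.21, limma adjusted p = 0.122) and CPS1 (0.40, limma adjusted p = 0.0582), a urea cycle enzyme, were not called.

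The 3 non-coding genes tested beside members differed between the lines in the direction of their neighbours. CEBPB-AS1 was not tested. Of 5 listed, 4 were in the tables and 3 were tested, 1 called higher in HepG2 and 2 higher in Caco-2 cells, with a median of -0.87. LINC00261 (chr20:22547663-22578642, minus strand), next to FOXA2, was at 2.48 to 4.52 TPM in Caco-2 and 43.4 to 62.2 TPM in HepG2 cells. It differed by 3.55, against 0.37 for FOXA2, which overlapped between the lines and was not called in co-culture control. GATA6-AS1 differed by -3.11, next to GATA6 at -4.08, and CEBPA-DT (chr19:33302857-33305054, plus strand) by -0.87, next to CEBPA at -1.66. GATA6 shares 94 of 3799 exonic bases with GATA6-AS1 and the kit did not mark strand. The part of shared reads was not tested.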

How the data were processed

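The authors deposited 1 table of TPM per library, with 60564 gene rows. Per the labels and the study's methods, RNA was amplified with a SMART-Seq kit that does not mark strand. Bowtie2 2.1.0 served to discard ribosomal, transfer and mitochondrial reads, STAR 2.7.1a aligned the others to GRCh38 (Ensembl 98), and RSEM 1.3.0 gave the TPM. TPM hold no counts, so the depth of each library is unknown, no counting error is given, and n limits the precision.

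Groups and replicate numbers came from the labels. Values were analysed as log2(TPM + 1) with limma 3.58.1 (eBayes with a trend) in R 4.3.3, keeping genes whose mean reached 1 TPM in any group, and p-values were adjusted by Benjamini-Hochberg over all genes tested, at 0.05. Fold changes on this scale understate those of low genes. Within a line the 4 groups were fitted together, and all 8 groups together for comparisons between the lines. The analysis of variance of the study's criteria used every gene that was above 0 TPM anywhere in a line. Python 3.11.15 with numpy 2.4.6, pandas 2.3.3, scipy 1.17.1 and matplotlib 3.10.9 did the rest. The fits were tested on simulated data drawn independently for each gene and library. These data had no shared replicate structure, so they did not test the choice to fit without a replicate block.

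The 8 genes and the gene lists were chosen with earlier results of these data known. Every member is given in each library, with full statistics within a line where the unadjusted limma p was under 0.05 and between the lines for every member. CEBPB and CEBPA in HepG2 cells were added to these after their values were seen. Genes of the lists were described by counts, with examples chosen after their values were seen. Some genes of these lists are not reported here. Coordinates came from GENCODE v44, which held 60295 of the 60564 gene IDs, and promoters from RefSeq.

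Alternatives were a pseudocount of 0.1, no filter or a filter at 5 TPM, median-of-ratios scaling, quantile normalization, limma without the trend, only the groups compared, the replicate number as a block, the other line's RNA subtracted, limma's moderated F test and Benjamini-Hochberg adjustment for the study's criteria, and each library left out in turn. Leaving out the 4 HepG2 libraries of replicate 3, or the 2 Caco-2 co-culture libraries of replicate 1, was chosen after seeing the data.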

Additional observations from a re-analysis of the deposited data

How the results depend on the processing

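Within both lines the number of members called stayed 0 in every contrast under every alternative run, with and without the 4 HepG2 libraries of replicate 3 or the 2 Caco-2 co-culture libraries of replicate 1, both chosen after seeing the data. The smallest limma adjusted p of any member there was 0.152 with the replicate block and 0.155 without HepG2 co-culture FFAs replicate 1, both for CEBPB in co-culture against mono-culture over both treatments, with differences of 0.74 and 1.05. Between the lines 6 to 7 members were called, 6 where the filter asked for a mean of at least 5 TPM, which left ONECUT1 untested. Calls were common among all genes, with 29.2% higher in HepG2 and 49.8% higher in Caco-2 cells over all 4 matched conditions without these alternatives. With Benjamini-Hochberg adjustment 0 members met the study's criteria in Caco-2 cells in place of 1. Without co-culture control replicate 2, FOXA2 no longer met them, and ONECUT1, at 0.03 TPM in that library, met them instead. The CEBPB difference between the lines over all 4 matched conditions changed sign to -0.0076 without the HepG2 libraries of replicate 3 and to -0.0061 without the Caco-2 co-culture libraries of replicate 1, with adjusted p of 0.979 and 0.984, and it was not called under any alternative (adjusted p 0.161 to 0.984). Leaving out 1 library at a time gave it 0.03 to 0.28. The cause was not tested.

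Same-numbered libraries of a line had correlated deviations from their group means in 9 of 15 pairs over 0.1 in Caco-2 cells (r = -0.138 to 0.396) and in 16 of 18 in HepG2 cells (0.0201 to 0.661), and 7 of 11 and 10 of 12 libraries correlated best with their own number. This is a hint of shared replicate structure, clearest in HepG2 cells (median r = 0.389 against -0.254 for other numbers). Deviations within a group sum to 0, so positive values for the same number pull those for other numbers below 0. The pairs are therefore not independent, and the 2 libraries of the Caco-2 co-culture control mirror each other exactly. Since not every pair was over 0.1 and the labels tie the numbers to nothing, same-numbered libraries were not taken as pairs. With the replicate block the members' calls stayed at 0 within the lines and 7 between them. Of all 16495 genes, 4949 were then called higher in HepG2 and 8399 higher in Caco-2 cells over all 4 matched conditions. Over all genes the block moved the calls for co-culture against mono-culture over both treatments from 4 higher and 4 lower to 186 and 306 in HepG2 cells, and from 0 to 28 and 32 in Caco-2 cells. For the difference of the co-culture effects it moved them from 33 and 55 to 174 and 170. TPM without counts leave the depth behind the low values of ONECUT1 in Caco-2 cells unknown.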

Other observations

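NR5A2 was at 0.62 to 7.57 TPM over the 12 HepG2 libraries, and the 4 libraries of replicate 3 were the only ones under 1 TPM. The replicate 3 library of HepG2 co-culture control held the highest CEBPB value of the series, 157 TPM, beside the lowest CEBPA value, 29.3 TPM, and the lowest GATA6 value, 3.64 TPM. STC2, the gene most like CEBPB, was at 18.6 and 30.7 TPM in the replicate 1 libraries of HepG2 mono-culture and co-culture with FFAs.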
